A study of Mus musculus with 4 samples.

Results

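The DREAM cell cycle genes are 41 genes out of 21627 mouse protein-coding genes of chromosomes 1 to 19 and X in the RefSeq table. They were taken as a named list, 29 genes of mitosis and 12 genes of DNA replication and S-phase entry, and a member was called in a library when the midpoint of a deposited peak lay within 5 kb of either end of its mm10 interval. The midpoint of a peak is its summit. In the windows of these genes the mTEClo lists held 61 peaks for replicate 1 and 57 for replicate 2, and the mTEChi lists held 47 and 62.

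The study profiled sorted medullary thymic epithelial cells with CUT&RUN, in which an antibody directs a nuclease to cut DNA beside a chromatin protein in permeabilized cells. There were 2 libraries of mTEClo and 2 of mTEChi, each from 500000 cells. All 4 came from thymi of mice aged 4 to 5 weeks with the genotype Trp53-WT, after enrichment of EpCAM+ cells and sorting. The lo and hi populations are conventionally the less mature and the more mature medullary epithelial cells, respectively, and the labels do not state the gate. By title the libraries used anti-p53, but the written protocol lists anti-BAF155, a chromatin remodeller subunit, so the protein behind the peaks is not settled here. No library from p53-deficient cells or with a control antibody was analysed here. The origin of the replicates (separate mice or a shared pool) is not labelled, so a p-value covers only library-to-library spread, which may be technical. The deposited lists hold between 69359 and 89809 peaks, each 301 bp wide, and depth is unknown because they carry no read counts. Peaks are not expression and check no cell label. A peak in every library was near 5 of 6 thymic epithelial, 5 of 6 mTEChi and 1 of 6 thymocyte marker genes (Ptcra), against 36% of all genes. A single overlapping region with a peak of every library was held by 0, 2 and 1 of them, against 19.5% of all genes. The thymocyte genes numbered 2 to 5 in single lists, where 59.7% to 69.2% of all genes were called. The share of other cells in the sort was not tested.

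DREAM is a repressor assembled in resting cells from a p130 or p107 pocket protein, E2F4 or E2F5 with a DP partner, and the MuvB core of LIN9, LIN37, LIN52, LIN54 and RBBP4. When p53 is active its target p21 inhibits cyclin-dependent kinases, the pocket proteins stay unphosphorylated, and DREAM holds cell cycle genes down, so p53 lowers these genes largely without binding them itself. Replication genes are classically reached through E2F sites, and mitotic genes through the cell cycle genes homology region (CHR), which LIN54 contacts and which often lies downstream of CCAAT boxes bound by NF-Y. In cycling cells MuvB instead joins B-MYB and FOXM1 to activate the mitotic genes.

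Of the 41 members, 33 matched the RefSeq promoter table of GRCm38.p6, the assembly of mm10, which gives 250 bases before and 50 after a transcript start. Ccna2, Cdc25c, Aurkb, Kif20a, Cdca2, Foxm1, Mcm4 and Ccne2 were not matched. Stretches of 10 of these promoters are printed 5′ to 3′ on the strand of the gene, from 180 bases before the start. Capitals mark CHR letters, spelled TTTGAA or with the second spelling TTTAAA, the CCAAT box, spelled CCAAT, and E2F site letters, spelled TTTCCCGC, TTTGGCGC, TTTCGCGC or TTTGCCGC. Both strands were searched, so a match on the opposite strand appears as its reverse complement. The E2F variants can overlap each other, as they do in Mcm5, and a match is a description and not a bound site. The first 5 stretches are mitotic promoters that lay under a peak in all 4 libraries.
Mad2l1: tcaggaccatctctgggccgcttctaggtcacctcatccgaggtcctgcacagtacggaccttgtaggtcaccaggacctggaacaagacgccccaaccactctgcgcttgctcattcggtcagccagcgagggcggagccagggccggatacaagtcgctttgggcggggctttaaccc
Prc1: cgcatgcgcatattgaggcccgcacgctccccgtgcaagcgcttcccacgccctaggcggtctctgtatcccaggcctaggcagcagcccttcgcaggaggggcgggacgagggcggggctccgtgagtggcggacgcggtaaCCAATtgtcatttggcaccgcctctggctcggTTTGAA
Ect2: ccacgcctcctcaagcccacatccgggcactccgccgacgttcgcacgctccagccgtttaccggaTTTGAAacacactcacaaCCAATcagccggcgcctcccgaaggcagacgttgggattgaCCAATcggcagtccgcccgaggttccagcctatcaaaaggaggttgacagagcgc
Cdca8: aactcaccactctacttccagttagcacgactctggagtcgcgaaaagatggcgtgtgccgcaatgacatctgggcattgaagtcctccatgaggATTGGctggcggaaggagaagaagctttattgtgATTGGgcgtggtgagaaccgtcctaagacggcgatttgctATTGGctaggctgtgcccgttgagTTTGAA
Top2a: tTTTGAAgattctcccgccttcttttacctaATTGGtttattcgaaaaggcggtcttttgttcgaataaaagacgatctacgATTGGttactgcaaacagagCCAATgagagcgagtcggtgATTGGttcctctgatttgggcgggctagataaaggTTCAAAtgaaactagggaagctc

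The Mad2l1 stretch runs over chr6:66535041-66535220 on the plus strand and holds none of these letters, and neither does the rest of its 300-base window. Prc1, at chr7:80294271-80294451 on the plus strand, has CHR letters whose first base lies 5 bases before the start, and Cdca8, at chr4:124936899-124937097 on the minus strand, has them from base 14 after it. In Top2a, at chr11:99024190-99024369 on the minus strand, the CHR letters nearest the start lie on the opposite strand, and Ect2, at chr3:27153879-27154058 on the minus strand, has them 114 bases before the start with CCAAT letters below. The next pair are helicase genes, also under a peak in all 4 libraries, shown for their E2F letters at chr8:75109329-75109508 on the plus strand and chr5:138171884-138172063 on the minus strand.
Mcm5: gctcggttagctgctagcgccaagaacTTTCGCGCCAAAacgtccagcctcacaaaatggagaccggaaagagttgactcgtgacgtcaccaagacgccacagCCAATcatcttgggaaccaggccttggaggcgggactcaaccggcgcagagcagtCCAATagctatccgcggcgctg
Mcm7: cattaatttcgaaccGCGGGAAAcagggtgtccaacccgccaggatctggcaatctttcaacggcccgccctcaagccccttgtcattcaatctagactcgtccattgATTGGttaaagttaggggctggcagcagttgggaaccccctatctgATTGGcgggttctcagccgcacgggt

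The last 3 are promoters with little or no peak, shown for contrast. Ccnb2, at chr9:70421545-70421734 on the minus strand, carries 3 CCAAT boxes and 2 CHR matches and was under no peak in any library. Rrm2, at chr12:24708074-24708259 on the plus strand, carries CCAAT and TTTAAA letters and was also under none. Bub1, at chr2:127831860-127832039 on the minus strand, carries 2 CCAAT boxes and was under a peak in mTEChi replicate 2 alone.
Ccnb2: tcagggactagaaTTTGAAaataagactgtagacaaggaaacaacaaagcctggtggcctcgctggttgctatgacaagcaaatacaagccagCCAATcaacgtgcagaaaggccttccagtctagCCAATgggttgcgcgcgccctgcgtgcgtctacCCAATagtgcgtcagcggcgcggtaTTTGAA
Bub1: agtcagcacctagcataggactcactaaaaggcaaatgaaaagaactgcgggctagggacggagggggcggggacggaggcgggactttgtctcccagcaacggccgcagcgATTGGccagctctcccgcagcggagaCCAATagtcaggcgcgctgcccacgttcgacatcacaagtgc
Rrm2: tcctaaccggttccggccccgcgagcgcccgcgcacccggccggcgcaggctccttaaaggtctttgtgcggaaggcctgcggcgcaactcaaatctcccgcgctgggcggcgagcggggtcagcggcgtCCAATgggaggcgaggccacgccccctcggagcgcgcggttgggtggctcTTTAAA

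A peak near a member was common in both cell states, and with the 5 kb window more of the mitotic than of the replication members had one. In mTEClo replicate 1, 36 of 41 members were called, against 69.2% of all protein-coding genes. In mTEClo replicate 2 there were 30 members, against 59.7%. In the mTEChi libraries 32 members were called in each, against 59.7% in replicate 1 and 64.1% in replicate 2. The share of members called was above the share of all genes in each of the 4 lists, at 87.8%, 73.2%, 78.0% and 78.0%. Median gene length was 16933 bp for members and 17330 bp for all genes, so the windows were of similar width.

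The counts of members called in the 2 states overlapped. The mean was 33 ± 4.24 members in mTEClo and 32 ± 0 in mTEChi (SD, n = 2 libraries each), and the exact two-sided permutation test over libraries gave p = 1, in a design whose smallest possible p is 0.333. Mitotic genes numbered 27 and 22 of 29 for mTEClo, against 24 and 25 for mTEChi, with means of 24.5 in both states (exact permutation p = 1). Replication genes numbered 9 and 8 of 12 for mTEClo, against 8 and 7 for mTEChi, a difference of 1 gene in the means (exact permutation p = 0.667). With 2 libraries a state a difference could not have passed 0.05, and without mTEClo replicate 1 the difference in members called changed sign, from 1 to -2.

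With the 5 kb window the 29 mitotic members were called more often than the 12 replication members in every library. The share of mitotic minus the share of replication members was 18.1 percentage points in mTEClo replicate 1, 9.20 in mTEClo replicate 2, 16.1 in mTEChi replicate 1 and 27.9 in mTEChi replicate 2, with a mean of 17.8 ± 7.71 (SD over 4 libraries). In mTEChi replicate 2 the replication share, 58.3%, was below that of all genes. The mean difference fell to 2.44 points with a 25 kb window. Longer lists of other genes of the same processes did not show the order throughout: 90.0% of other mitotic against 92.0% of other replication genes were called in mTEClo replicate 1, 73.3% against 76.0% in mTEClo replicate 2, 90.0% against 84.0% in mTEChi replicate 1 and 93.3% against 88.0% in mTEChi replicate 2. The ranks of the peaks gave no such order. The rank of a peak is its place by the authors' score within its own list, as a percentage of the peaks in that list, so that a small value is a high rank, and scores are not comparable between lists. The median best peak of called mitotic members ranked at 23.0%, 4.49%, 9.03% and 7.27% in the order mTEClo 1, mTEClo 2, mTEChi 1 and mTEChi 2, against 9.76%, 20.1%, 3.36% and 20.2% for replication members. The mitotic median was the higher ranked in the second replicate of each state and the lower ranked in the first, and the mean difference was -2.40 ± 14.1 points (SD, n = 4 libraries).

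**Figure D1:**
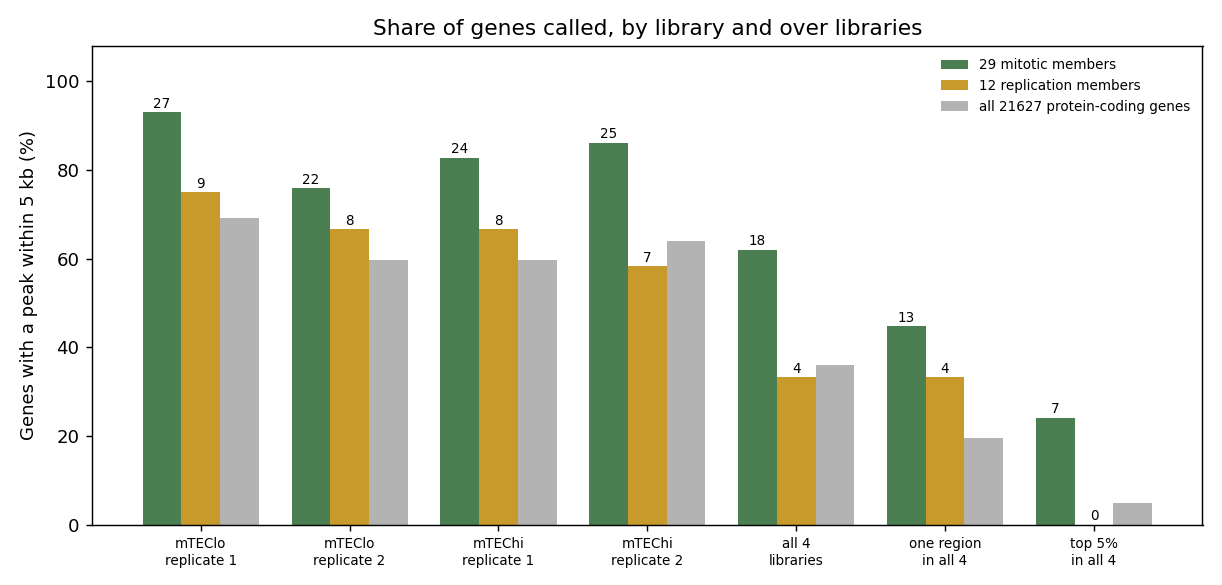
Share of the 29 mitotic members (green), 12 replication members (yellow) and 21627 protein-coding genes (grey) with a peak within 5 kb, in percent, for each library and for the rules over 4 libraries; numbers above the bars are members called. The mitotic bar is above the replication bar in every library, and 18 mitotic and 4 replication members were called in all 4.

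Both mTEClo libraries called 29 members, against 51.3% of all genes, and both mTEChi libraries 27, against 48.1%. Called in all 4 libraries were 22 of 41 members, against 36% of all genes, with 18 of 29 mitotic genes and 4 of 12 replication genes. A call at different positions need not be the same site, so peaks that overlapped by at least 1 bp were merged, and 17 members held a single region with a peak of every library (all genes 19.5%). These were 13 mitotic and 4 replication genes with 18 regions, since Mcm7 had 2. Within a region the 4 summits spanned 29 to 236 bp, with a median of 54 bp. A best peak in the top 5% of every list was found at 7 members, all mitotic (Ccna2, Mad2l1, Prc1, Ect2, Cdca2, Cdca8 and Top2a), against 4.91% of all genes, and at 0 of the 12 replication genes. In single libraries the top 5% held 13, 13, 16 and 13 members in the same order, against 14.9%, 10.7%, 14% and 14.1% of all genes. Of these, 11 were mitotic in each list, and 2, 2, 5 and 2 were replication genes. In mTEChi replicate 1 the replication share, 41.7%, was above the mitotic share, 37.9%. In the longer lists, 4 of 30 other mitotic and 2 of 25 other replication genes were in the top 5% of every list. Beside 4.91% of all genes, 0 of 12 is not read as a trait of the class.

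**Figure D2:**
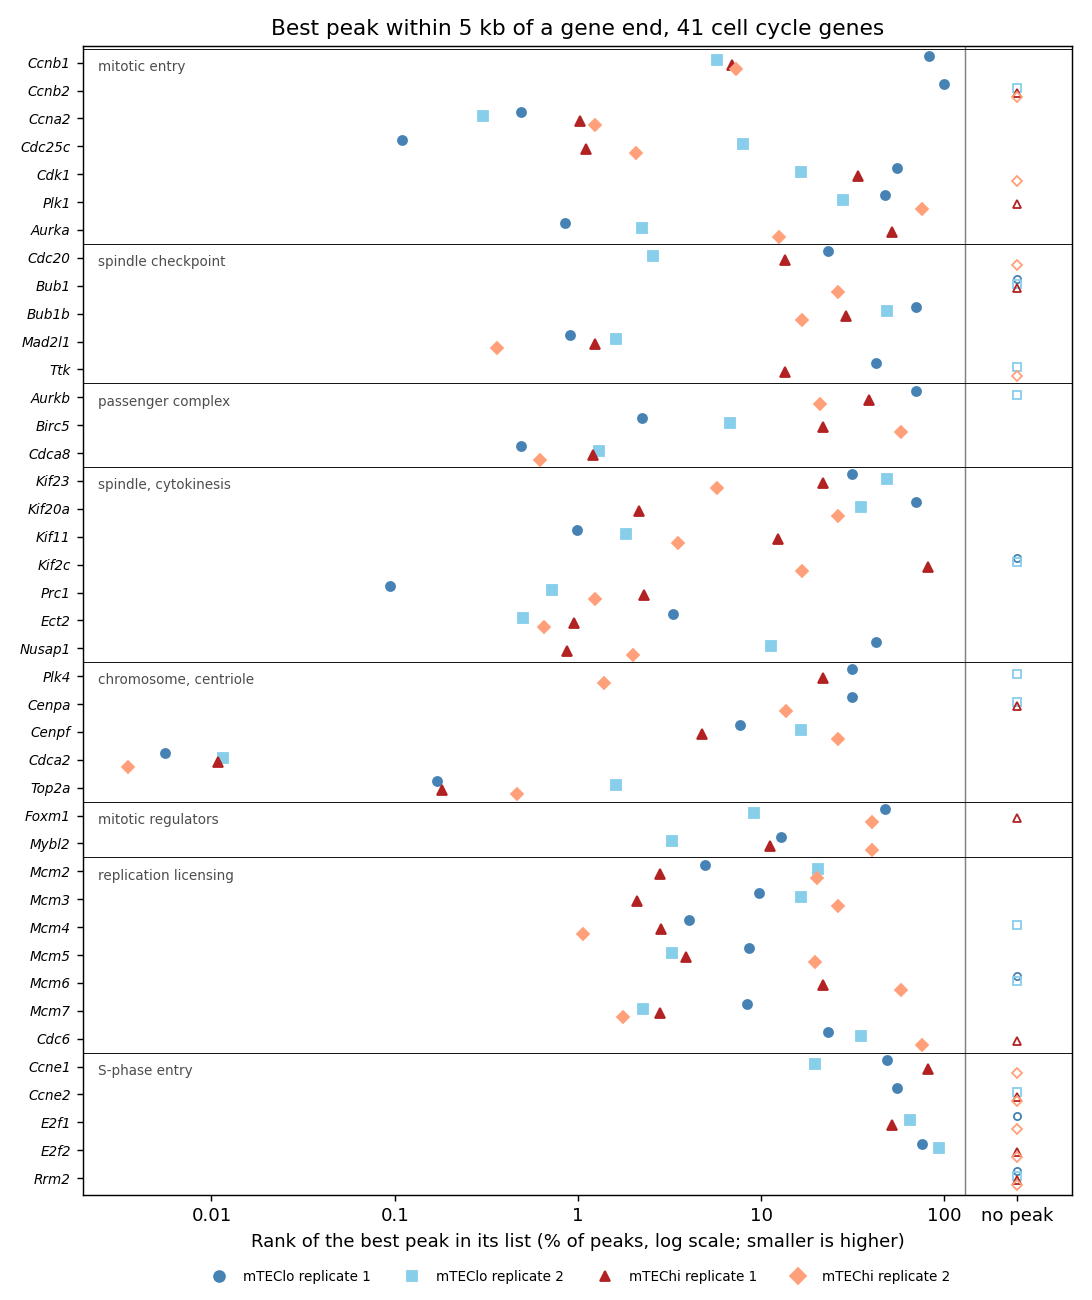
Rank of the best peak within 5 kb of each of the 41 genes as a percentage of the peaks in its list (x axis, log scale, left is higher) with 1 point per library and open symbols at the right for no peak; genes are grouped by role. Cdca2 lies furthest left in all 4 libraries, at list places 3 to 8, whereas Rrm2 has open symbols only.

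Some of these peaks lie near an end of another gene, and ends of non-coding genes were not searched. An end of another protein-coding gene lay nearer to the best peak than the member's own end for 7 of 36, 6 of 30, 6 of 32 and 11 of 32 called members, and within 1 kb for 12, 10, 9 and 13. The same counts were not computed over all genes, so they are not read as a trait of the members. Without peaks within 1 kb of another gene's end, calls in all 4 libraries fell from 22 to 15 members (all genes, 36% to 25.3%). Members with a single region in all 4 fell from 17 to 9 (all genes, 19.5% to 12.2%). Ccna2, Aurka, Kif20a, Prc1, Cdca2, Cdca8, Mcm2 and Mcm7 were the 8 that dropped out of the second count, so a peak there can be assigned to either gene.

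Among the 7 genes of mitotic entry, 4 held a single region in all 4 libraries (all genes 19.5%). Ccna2 encodes cyclin A2, which drives S phase and early mitosis, and lies at chr3:36564865-36573038. Its shared region, chr3:36571971-36572324, scored 19.7 and 16.9 in the first and second mTEClo library, and 22.5 and 11.3 in the corresponding mTEChi libraries. Those are ranks of 0.487%, 0.305%, 1.02% and 1.23%, with summits 864 to 917 bp inside the gene's upper end and 968 to 1021 bp from Bbs7. Cdc25c, the phosphatase that activates Cdk1, lies at chr18:34732993-34751564 and had a region at chr18:34751487-34751819, 73 to 105 bp outside its upper end. It scored 29.4 and 6.57 in mTEClo, with 21.6 and 9.19 for mTEChi, ranking at 0.110%, 8.00%, 1.11% and 2.09%. Cdc25c was thus in the top 5% of 3 lists, and mTEClo replicate 2 was the low one.

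Ccnb1, which encodes the main mitotic cyclin B, was called in all 4 libraries 195 to 229 bp before its start, with scores of 3.17, 7.15, 8.46 and 6.01 in the order used above. The first of these ranked at only 82.6% of its list and the others between 5.71% and 7.27%. Aurka, a spindle pole kinase, scored 16.5 and 9.50 in mTEClo and 3.62 and 5.39 in mTEChi, and its summits lay 41 to 143 bp from Cstf1, closer than to the Aurka start. Cdk1, the mitotic kinase itself, was called in 3 libraries with best scores of 4.10, 5.46 and 4.25 at differing places, though mTEClo replicate 2 and mTEChi replicate 1 both had a peak beside its start, and its nearest peak in mTEChi replicate 2 was 7724 bp away. Plk1, a kinase of mitotic entry and spindle assembly, scored 4.52, 4.93 and 2.88, and its nearest peak in mTEChi replicate 1 was 23143 bp away.

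The partner of Ccnb1 stood apart from it. Ccnb2 at chr9:70407689-70421554 encodes the second B-type cyclin and was called in mTEClo replicate 1 alone. That peak scored 2.06, ranked at 99.9% of its list, and lay 1564 bp beyond the end of the gene and 15429 bp from its start. The nearest peak was at 5275 bp in mTEClo replicate 2, 106031 bp in mTEChi replicate 1 and 17328 bp in mTEChi replicate 2. Its promoter letters are those of a typical CHR gene, and the lack of a peak says nothing of how the gene is regulated.

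Among the 5 spindle checkpoint genes, Mad2l1 had the strongest peak. It encodes the checkpoint protein MAD2, which restrains anaphase until chromosomes are attached, and lies at chr6:66535221-66541107. The region chr6:66535136-66535465 scored 16.2 and 10.3 in mTEClo and 20.6 and 19.3 in mTEChi, ranking at 0.910%, 1.61%, 1.24% and 0.364%. Its summits lay 65 to 94 bp after the start, and the nearest other protein-coding gene, Vmn1r32, was at least 16868 bp away. Bub1b, which encodes the checkpoint kinase BUBR1, was called in all 4 libraries with scores of 3.62, 3.94, 4.56 and 4.88, but in mTEChi replicate 1 the peak lay 3455 bp after the start instead of beside it. Cdc20, the anaphase activator that the checkpoint inhibits, scored 5.66, 9.00 and 6.13 in 3 libraries within 128 bp before its start, and its nearest peak in mTEChi replicate 2 was at 9626 bp.

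The remaining checkpoint genes were called rarely. Bub1 at chr2:127800197-127831859 encodes the kinase that recruits the checkpoint to kinetochores and was called in mTEChi replicate 2 alone, 103 bp before its start, with a score of 4.34 that ranked at 26.2%. Its nearest peak was at 5405 bp in mTEClo replicate 1, just beyond the 5 kb limit, at 7766 bp in mTEClo replicate 2 and at 8206 bp in mTEChi replicate 1. Ttk, the checkpoint kinase MPS1, was called in 1 library of each state, with best scores of 4.60 and 6.13 at -3502 and 399 bp relative to the start. Just inside the limit was E2f1 in mTEChi replicate 1, whose best peak lay 4482 bp from the gene.

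Of the 3 passenger complex genes, which together guide chromosome attachment and cytokinesis, Cdca8 had a single region in all 4 libraries. Cdca8 encodes borealin and lies at chr4:124918465-124936917. The region chr4:124936506-124937140 scored 19.7 and 11.0 in mTEClo and 20.8 and 15.1 in mTEChi, ranking at 0.487%, 1.30%, 1.20% and 0.625%. The summits lay 39 to 73 bp before the Cdca8 start and 6 to 28 bp from the end of 9930104L06Rik. Birc5, which encodes survivin, was called in all 4 libraries, with scores of 12.0, 6.81, 5.07 and 3.34. Its best peak lay 4077 to 4221 bp before the start in 3 libraries and 93 bp before it in mTEChi replicate 1, the only library with a Birc5 start peak. Aurkb, the kinase of the complex, scored 3.62, 4.08 and 4.53 in 3 libraries and had no peak in mTEClo replicate 2.

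Spindle and cytokinesis genes were called in all 4 libraries at 6 of 7 members (all genes 36%). Prc1 at chr7:80294445-80316259 encodes a crosslinker of the central spindle. Its region chr7:80294120-80294461 scored 30.4 and 13.1 in mTEClo and 15.2 and 11.3 in mTEChi, ranking at 0.0941%, 0.726%, 2.29% and 1.23%. The summits lay 140 to 181 bp before the start and 280 to 321 bp from Rccd1. Ect2 at chr3:27097222-27154253 encodes a protein needed for cytokinesis. Its region chr3:27153779-27154145 scored 10.6 and 14.6 in mTEClo and 23.3 and 14.9 in mTEChi, ranking at 3.30%, 0.501%, 0.948% and 0.656%, with summits 51 to 117 bp before the start. The nearest other protein-coding gene to the Ect2 summits, Nceh1, was at least 29009 bp away. This peak, like that of Mad2l1, thus has no near protein-coding neighbour.

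Kif11, the motor that separates spindle poles, scored 15.7, 9.90 and 6.22 within 188 bp before its start in 3 libraries, whereas its best peak in mTEChi replicate 2, at 7.28, lay 2839 bp after it. Kif20a, a motor of cytokinesis, had best scores of 3.62, 4.42, 15.6 and 4.34 with all 4 summits within 697 bp of Brd8. Nusap1, a microtubule-binding protein, scored 4.60, 6.00, 24.1 and 9.20, and the peak lay 291 to 352 bp after the start except in mTEClo replicate 2, where it lay at 3348 bp. An end of Oip5 was nearer to it than that of Nusap1 in every library, at 145, 3141, 114 and 84 bp. Kif23, another cytokinesis motor, scored 5.12, 3.94, 5.07 and 6.52 at several places. The last of these, in mTEChi replicate 2, lay 2685 bp from an end of Kif23 and 82 bp from Rplp1. Kif11, Kif20a, Nusap1 and Kif23 were called in every library, but only Kif20a had a peak of all 4 libraries in a single region.

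Kif2c, a motor that depolymerizes microtubules, was the mitotic member with calls from mTEChi only, in both replicates. It lies at chr4:117159633-117182624, and its mTEChi peaks scored 2.77 and 4.88, ranking at 80.9% and 16.7%, with summits 31 and 33 bp from the upper end of the gene. The gene lies on the minus strand, so that end is its 5′ end. Relative to the start in the promoter table these summits lay at -3883 and -3819 bp. In the mTEClo libraries the nearest peaks were at 7196 and 7167 bp. In all, 2 members (Kif2c and Mcm6) were called in both mTEChi libraries and in 0 of the mTEClo libraries, against 2.23% of all genes, and 1 (E2f2) showed the reverse pattern, against 3.53%. Bub1, Ccnb2 and Ccne2 were called in a single library each.

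Chromosome and centriole genes included the highest-ranked peak of any member. Cdca2 at chr14:67673180-67715841 encodes a subunit that brings protein phosphatase 1 to chromatin at mitotic exit. Its region chr14:67715685-67716019 scored 64.6 and 47.0 in mTEClo and 106 and 72.9 in mTEChi. These were the peaks ranked 5, 8, 8 and 3 in their lists, so the locus stood among the strongest of the genome in every library. The summits lay 6 to 28 bp from the upper end of Cdca2 and 217 to 251 bp from Kctd9, and the 2 genes cannot be told apart as owners of the peak.

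Top2a, which encodes the topoisomerase that untangles sister chromatids, lies at chr11:98992947-99024199. The region chr11:99024118-99024456 scored 26.7 and 10.3 in mTEClo and 47.0 and 17.4 in mTEChi, ranking at 0.169%, 1.61%, 0.182% and 0.465%. Its summits lay 79 to 117 bp before the start, within the CCAAT-rich stretch printed above. The nearest other protein-coding gene, Igfbp4, was at least 15699 bp away. Cenpf, a kinetochore protein, scored 8.00, 5.46, 10.4 and 4.34 at 89 to 161 bp before its start. Cenpa, the centromeric histone, scored 5.12 in mTEClo replicate 1 and 5.01 in mTEChi replicate 2 and had no peak in the other libraries. Plk4, the kinase of centriole duplication, scored 5.12, 5.07 and 10.6 and had no peak in mTEClo replicate 2.

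The regulators of the mitotic program differed. Mybl2, which encodes B-MYB, had a region in all 4 libraries beside its start, scoring 3.17 and 8.37 in mTEClo and 6.68 and 3.83 in mTEChi. In mTEClo replicate 1 this region ranked at 82.6% and a stronger peak, with a score of 6.79, lay 2457 bp from the other end of the gene and 114 bp from Gtsf1l. Foxm1, which encodes the factor that joins B-MYB at CHR genes, had best scores of 4.51, 6.49 and 3.83 at separate places and had no peak in mTEChi replicate 1.

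Within the replication class the calls in all 4 libraries were at helicase genes. Of the 7 licensing genes, the 6 MCM helicase subunits and the loader Cdc6, 4 were called in all 4 libraries (all genes 36%). These were Mcm2, Mcm3, Mcm5 and Mcm7, and all 4 had a single region. Mcm7 at chr5:138164583-138172111 had 2 of them. The upstream region, chr5:138171842-138172191, scored 4.96, 9.39, 10.4 and 8.90 around 129 bp before the start, and the other, chr5:138171018-138171398, scored 7.97, 7.08, 13.8 and 9.82 around 668 bp after it. The best Mcm7 peak ranked at 8.32%, 2.27%, 2.82% and 1.76%, and its summits lay 29 to 853 bp from Ap4m1.

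Mcm5 at chr8:75109468-75128439 scored 7.67 and 8.37 in mTEClo and 11.6 and 4.85 in mTEChi in the region chr8:75109288-75109649. These ranked at 8.63%, 3.27%, 3.87% and 19.7%, with summits 10 to 71 bp before the start. Mcm3 scored 7.39, 5.46, 15.8 and 4.34 at 59 to 114 bp before its start. The nearest other protein-coding gene to it, Il17f, was at least 35097 bp away. Both helicase genes thus had a peak over the start in every library without another protein-coding gene close by. Mcm2 had its best peak 3282 to 3518 bp before its own start and 9 to 189 bp from Tpra1, at scores of 9.28, 4.96, 13.8 and 4.74, and a lower peak at its own start in 3 libraries. Mcm4 scored 9.94, 13.7 and 12.1 at 15 to 132 bp from Prkdc and had no peak in mTEClo replicate 2, where the nearest lay 241315 bp away.

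Mcm6, at chr1:128331575-128359705, was called in both mTEChi libraries and in no mTEClo library, but not at a single site. In mTEChi replicate 1 the peak scored 5.07 and lay 838 bp after the start, and in mTEChi replicate 2 it scored 3.34 and lay 3681 bp beyond the other end of the gene, 424 bp from Lct. The nearest mTEClo peaks were at 18767 and 8867 bp. Cdc6 scored 5.66, 4.42 and 2.88 and had no peak in mTEChi replicate 1.

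Of the 5 S-phase entry genes 0 were called in all 4 libraries, against 36% of all genes. In the single lists 3, 3, 2 and 0 were called, against 69.2%, 59.7%, 59.7% and 64.1%. With 5 genes these counts are not read as a trait of the group. Rrm2 at chr12:24708254-24714146 encodes the regulated subunit of ribonucleotide reductase, which supplies deoxynucleotides, and had no peak in any library. Its nearest peaks lay 17287, 20896, 17777 and 17606 bp away, and 14.5% of all genes likewise had none within 5 kb. Ccne2 at chr4:11190433-11204779 encodes a cyclin E and had a single peak, in mTEClo replicate 1, with a score of 4.10 at 1860 bp beyond its upper end. The nearest peaks in the other libraries were at 8103, 34044 and 12308 bp.

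Of the 2 activator E2F genes, E2f2 at chr4:136172274-136196057 was called in both mTEClo libraries and no mTEChi library. The peaks, of scores 3.55 and 2.59, ranked at 75.8% and 93.8% and lay near opposite ends of the gene, and the nearest mTEChi peaks lay at 7316 and 8289 bp from an end of the gene. By the rule on starts E2f2 went the other way, since mTEChi replicate 1 was the only library with a peak within 500 bp of an annotated E2f2 start, the second of 2, which lies inside the gene. E2f1 was called in 1 library of each state, with scores of 3.48 and 3.62, and had no start peak. Ccne1, the other cyclin E gene, scored 4.35, 5.29 and 2.77 and had no peak in mTEChi replicate 2. Kif2c, Mcm6 and E2f2 were the members called in both libraries of 1 state and in 0 of the other. Only Kif2c had its best peaks in a single place, at the 5′ end of its interval. That place was not within 500 bp of the start in the promoter table.

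The best peaks of called mitotic genes lay mostly near the transcript start. In the order used above they lay before it for 11, 14, 14 and 13 genes, and at or after it for 10, 3, 5 and 6. Among called mitotic members with an annotated start, the best peak lay within 500 bp of it for 16 of 21, 14 of 17, 16 of 19 and 13 of 19, with median positions of -16, -117, -93 and -89 bp. For replication members it did so for 3 of 7, 3 of 8, 3 of 7 and 2 of 6. The same share of best peaks was not computed over all genes. Counting any peak within 500 bp of the start, 22, 20, 23 and 18 of 33 members had one, against 41.7%, 29.9%, 33.5% and 30.6% of 17273 genes with a start. The means of 21 ± 1.41 in mTEClo and 20.5 ± 3.54 in mTEChi (SD, n = 2) differed by less than their spread (exact permutation p = 1). By class, any such peak was present at 17, 14, 17 and 15 of 23 mitotic and 5, 6, 6 and 3 of 10 replication genes. In mTEClo replicate 2 the shares were 60.9% and 60%. A best peak elsewhere thus does not mean that a start peak is missing. A start peak in all 4 libraries was present at 12 of 33 members (all genes 15.5%), namely 9 mitotic genes and Mcm3, Mcm5 and Mcm7. In no library did Ccnb2, Kif2c, Mcm6, E2f1 or Rrm2 have one (all genes 44.8%).

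**Figure D3:**
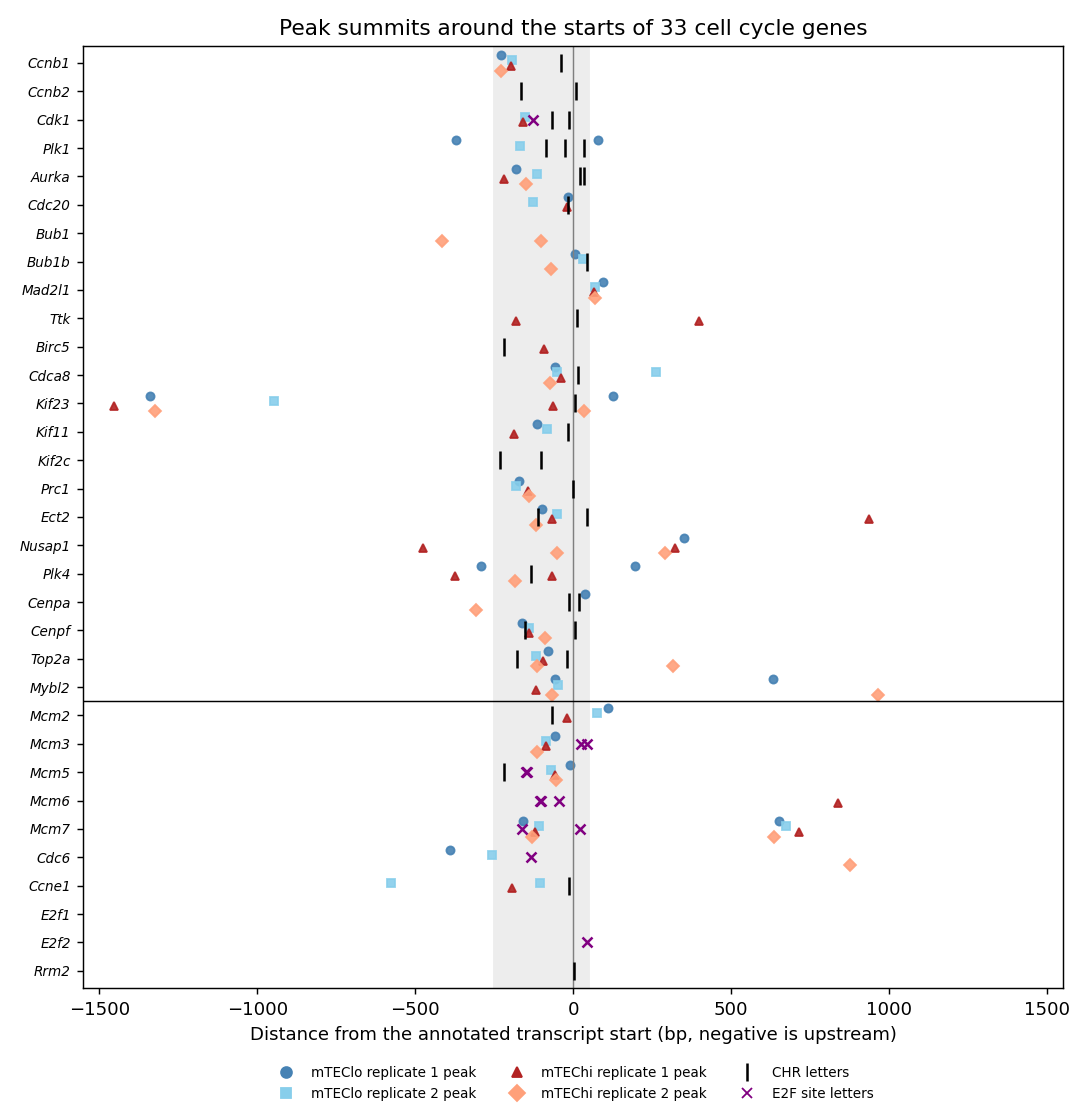
Summits within 1500 bp of the annotated start of the 33 members that have one (x axis in bp, negative is upstream), 1 symbol per library, with CHR letters as black ticks and E2F site letters as purple crosses (both from the window of the most upstream start) and the 300-base promoter window shaded. The upper block holds mitotic and the lower block replication genes, and summits of Prc1, Ect2, Cdca8, Top2a, Mcm3 and Mcm5 fall within the shaded window in all 4 libraries.

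The promoter letters differed between the 2 classes. A gene with more than 1 annotated start, as for 4 of the 33 members (Prc1, Ect2, Mcm7 and E2f2), was counted when any of its 300-base windows held the letters. CHR letters were present for 19 of 23 mitotic genes (82.6%) and 5 of 10 replication genes (50%), against 27.7% of all 17273 genes. E2f2 is among the 5, and is counted below for both letters together and for GC boxes, only through its second start. CCAAT boxes were present for 17 mitotic (73.9%) and 7 replication genes (70%), against 42.7%, and both sets of letters for 16 (69.6%) and 4 (40%), against 12.8%. E2F site letters showed the opposite order, for 1 mitotic gene (Cdk1, 4.35%) and 6 replication genes (Mcm3, Mcm5, Mcm6, Mcm7, Cdc6 and E2f2, 60%), against 3.33%. GC boxes (GGGGCGGGG) were found for 3 genes of each class, against 17.5% of all genes. The members are known targets of these elements, so the letters describe the list and are no independent result. Mad2l1, Nusap1, Mybl2 and E2f1 held none of the CHR, CCAAT or E2F letters, which says only that these spellings are not in their windows.

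A full p53 site, which is 2 copies of the p53 decamer with up to 13 bases between them, was found for 0 of 33 members and for 10 of all 17273 genes (0.0579%). A single decamer was found in Bub1b, Birc5 and Kif23, against 8.55% of all genes. The rarity of the full site makes 0 of 33 uninformative about these genes, and nothing follows from it about binding by p53.

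**Figure D4:**
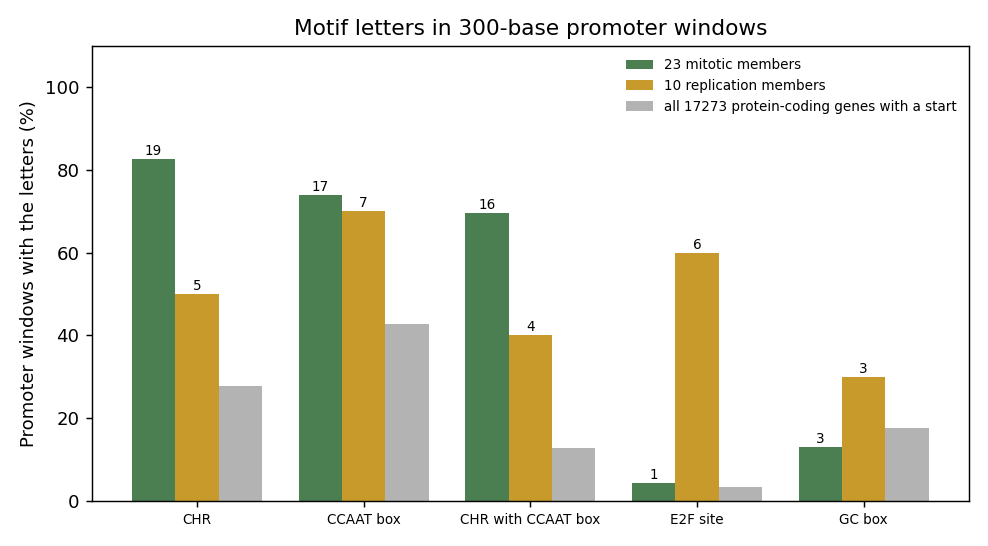
Percent of genes with CHR, CCAAT, both, E2F site or GC box letters in a 300-base promoter window, for 23 mitotic members (green), 10 replication members (yellow) and 17273 genes (grey); numbers above bars are members. CHR letters were found for 19 mitotic and 5 replication genes, E2F letters for 1 and 6.

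Letters and peaks were only loosely joined. A start peak in all 4 libraries was present at 7 of 16 mitotic genes with both CHR and CCAAT letters and at 2 of 7 without both. Over all genes the shares were 15.3% with both and 15.5% without. Replication genes with E2F letters had a start peak in all 4 libraries at 3 of 6 (Mcm3, Mcm5 and Mcm7), and those without at 0 of 4. Over all genes this was 29.0% with E2F letters and 15.0% without, so genes outside the list showed the same direction. CHR letters, counted with or without CCAAT letters, went the other way, with 11.9% of all genes with them and 16.9% without. Among mitotic genes it was 7 of 19 against 2 of 4, and among replication genes 1 of 5 against 2 of 5. The 19 include the 16 mitotic genes with both sets of letters, and the 7 are the same genes as above. GC letters went with more start peaks over all genes, at 23.6% against 13.8%, but not among members. There it was 1 of 3 against 8 of 20 mitotic genes and 0 of 3 against 3 of 7 replication genes. For CCAAT letters the shares over all genes were 21.0% with and 11.4% without. Members went the same way, at 7 of 17 against 2 of 6 mitotic genes and 3 of 7 against 0 of 3 replication genes.

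Other genes of the same pathway were listed apart from the 41. Of 30 other mitotic genes 19 were called in all 4 libraries (all genes 36%), and 14 had a single region (all genes 19.5%). Of 25 other replication genes 16 were called in all 4 libraries and 13 had a single region, so the lower count of the 12 replication members was not seen in the longer list, where 64.0% were called in all 4 against 63.3% of the other mitotic genes. Of 11 genes for DREAM subunits 5 were called in all 4 libraries (E2f4, Tfdp2, Lin37, Lin52 and Rbbp4), against 36% of all genes. In the single lists 9, 9, 8 and 10 were called, against 69.2%, 59.7%, 59.7% and 64.1% of all genes. Lin52, which encodes the MuvB subunit that binds the pocket protein, had the highest ranks, scoring 26.3 and 12.2 in mTEClo and 42.6 and 19.3 in mTEChi, 168 to 363 bp before its start and 121 to 316 bp from Aldh6a1. Rbbp4, the histone-binding MuvB subunit, scored 8.00, 5.46, 6.59 and 17.6 within 118 bp of its start. Lin37, the MuvB subunit needed for repression, had a peak at its own start and a second one beside Proser3 in all 4 libraries, the first being the best in mTEClo, at 11.7 and 3.98, and the other in mTEChi, at 20.1 and 16.7. Tfdp2, a DP partner, was called at differing places, with scores of 9.34, 5.46, 7.20 and 4.88.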

How the data were processed

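Peaks were taken from 4 deposited lists, 1 per library, in mm10 coordinates written from 1. The submitters' processing notes list MACS2 2.2.7.1, SAMtools 1.9, Bowtie2 2.2.9 and Picard, with the build mm10, with settings and any calling control not given in the sources used here. Each interval is a summit with 150 bp on either side, and replicates were not pooled. The deposited score was taken to be −log10 of a p-value (or a q-value, which is not stated) written by the authors' caller. Its minimum is 2.00, and the 4 commonest values cover 38.7% to 51.1% of a list, so ranks hold many ties. Ties shared their mean rank, and scores were compared only within a list. Depth is unknown.

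Gene intervals, starts and promoters came from RefSeq (GRCm38.p6). Members and gene lists were chosen with earlier results of these data known. Full values are given for the 10 members with the best worst rank among those with a region in all 4 libraries, for members called in 1 state alone, and for those called in 0 or 1 library. Libraries were compared with an exact two-sided permutation test. Lists are described by counts beside all genes, without a test. On simulated lists made to check the code, 120 of 120 planted genes and 0 of 80 cleared genes were called in all 4 libraries, over 21627 genes. The planting fixed this outcome, so it says nothing of the rule on the real lists. Software was Python 3.11.15 with scipy 1.17.1, numpy 2.4.6, matplotlib 3.10.9 and pandas 2.3.3.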

Additional observations from a re-analysis of the deposited data

How the results depend on the processing

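Among the recomputed values 4 changed sign from a main value other than 0, and 16 moved by more than the spread between libraries or, for counts, by over 1.5 times. No difference between states passed 0.05 under any setting, which the design could not reach, so this says nothing of their stability. That of mitotic members, 0, ranged from -2.5 (without mTEClo replicate 1) to 2.5 (without mTEClo replicate 2), and was -2 with only peaks above the median score. That of replication members, 1, ranged from 0 to 1.5. The difference in members called between mTEClo and mTEChi, 1 gene, became -1 with only peaks above the median score of each list and ranged from -2 (without mTEClo replicate 1) to 4 when 1 library was left out. The mitotic minus replication median percentile, -2.40, became 2.00 without mTEClo replicate 2 and 1.11 without mTEChi replicate 2. It ranged from -7.63 to 2.00 with 1 library left out, and was lowest, at -7.86, with only peaks above the median score. The difference in share called, 17.8 percentage points, was 2.44 with a 25 kb window and 14.5 to 20.7 with 1 library left out. Members called in all 4 libraries, 22, numbered 37 with a 25 kb window, 10 among the 10000 highest peaks and 22 to 25 with 1 library left out. Members with a single shared region, 17, numbered 9 among the 10000 highest peaks, 9 with peaks within 1 kb of another gene left out (chosen after seeing the data), and 17 to 21 with 1 library left out. Members called in mTEClo alone, 1, numbered 2 with a 1 kb window, 0 with 25 kb, 3 above the median score, 2 among the 10000 highest peaks and 1 to 4 with 1 library left out. Those in mTEChi alone, 2, numbered 1, 0 and 0 with 1 kb, 25 kb and the 10000 highest peaks, and 2 to 5 with 1 library left out, the highest without mTEClo replicate 1. The wider window and fewer peaks alter these counts by construction. So does leaving out a library, since a rule over all libraries or over both of a state then asks only for those that remain. The cause of the other changes was not tested.

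The labels do not say what a replicate number marks, and deviations of same-numbered libraries correlated at -0.00155 across 21627 genes, so the number was not used as a pairing. With the replicate block the differences were 1, 0 and 1 gene for all, mitotic and replication members, with exact sign-flip p = 1, 1 and 0.5, and no call changed. Depth, the control used in calling and the antibody limit every count here, since a missing call is not the absence of binding.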
